A study of Homo sapiens with 6 samples.

Results

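The genes of acyl-CoA supply, acyl-CoA oxidation and sterol synthesis described here were ACLY, HADH, ACADS, HMGCS1, SQLE and SREBF1, measured by RNA sequencing of a pair of human lung cancer cell lines. They were taken by name from the deposited gene table, and all 6 were found among its 6641 genes. HCC827_Er, the resistant line of the series, was compared with HCC827, the parental line, with 3 libraries of each. HCC827 cells derive from a lung adenocarcinoma with an activating mutation of EGFR, and the series asks how histone crotonylation relates to resistance to inhibitors of the EGFR kinase. The labels give no drug dose, time or exposure for either line, and do not say whether HCC827_Er is a clone or a pool. Separate cultures are not named for the 3 libraries of a line, so a p-value here reflects the spread between libraries, which may be technical. In such bulk samples fewer cells of a type and less RNA per cell cannot be told apart.

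Cells join acyl groups to coenzyme A before they burn them, build lipids from them or transfer them to proteins. ACLY cleaves citrate in the cytosol to give acetyl-CoA, the building block of fatty acids and sterols and the donor for histone acetylation. In mitochondria, short-chain acyl-CoA dehydrogenase (ACADS) turns butyryl-CoA into crotonyl-CoA, the donor of the crotonyl group, and HADH oxidises the 3-hydroxyacyl-CoA that forms when crotonyl-CoA is hydrated. In the sterol pathway, HMGCS1 condenses acetyl-CoA with acetoacetyl-CoA at the entry of the mevalonate route, and SQLE oxidises squalene, the first step in which oxygen enters the sterol skeleton. SREBF1 encodes SREBP-1, a membrane-bound transcription factor that is cut free when sterols are scarce and activates genes of lipid synthesis. Its gene gives the forms SREBP-1a and SREBP-1c, which a value per gene cannot separate.

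The windows around the annotated transcription starts are shown for HMGCS1, SREBF1 and ACLY, since SREBP proteins act on the promoters of lipid synthesis genes together with the factors NF-Y and Sp1. Each runs 5′ to 3′ on the strand of the gene, from 250 bases before to 50 bases after the start, in RefSeq on GRCh38.p14. Capitals mark the letters CCAAT (the NF-Y box) and GGGCGG (the Sp1 box) on either strand, so that the reverse strand appears as ATTGG and CCGCCC.
HMGCS1, chr5:43313363-43313662, minus strand: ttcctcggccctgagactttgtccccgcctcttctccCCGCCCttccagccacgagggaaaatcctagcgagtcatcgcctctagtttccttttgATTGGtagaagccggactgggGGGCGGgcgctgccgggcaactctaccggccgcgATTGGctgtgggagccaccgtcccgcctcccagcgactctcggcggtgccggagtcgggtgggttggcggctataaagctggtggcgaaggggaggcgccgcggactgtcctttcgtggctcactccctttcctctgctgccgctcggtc
SREBF1, chr17:17836937-17837236, minus strand: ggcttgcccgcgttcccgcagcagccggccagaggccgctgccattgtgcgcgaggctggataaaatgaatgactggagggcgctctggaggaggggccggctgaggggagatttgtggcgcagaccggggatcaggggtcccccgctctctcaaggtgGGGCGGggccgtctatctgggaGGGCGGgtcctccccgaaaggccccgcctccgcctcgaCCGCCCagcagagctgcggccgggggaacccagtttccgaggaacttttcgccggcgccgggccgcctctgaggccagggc
ACLY, chr17:41918973-41919272, minus strand: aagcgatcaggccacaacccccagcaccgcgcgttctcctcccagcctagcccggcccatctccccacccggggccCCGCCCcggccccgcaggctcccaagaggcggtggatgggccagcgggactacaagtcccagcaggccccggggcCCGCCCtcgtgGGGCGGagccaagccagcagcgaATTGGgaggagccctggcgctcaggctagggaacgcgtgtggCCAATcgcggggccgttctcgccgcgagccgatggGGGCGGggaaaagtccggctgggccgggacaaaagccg
The HMGCS1 window held 2 NF-Y boxes, both on the reverse strand, their first bases at -155 and -100 where the start is 0, and an Sp1 box on each strand. The ACLY window held an NF-Y box on each strand and 4 Sp1 boxes, and the SREBF1 window held no NF-Y box and 3 Sp1 boxes. Of 35116 RefSeq windows of this length, 34.6% held an NF-Y box and 44.95% an Sp1 box on either strand, and no marked motifs overlapped in the windows shown. The letters TCACNCCAC, a core of the sterol response element, and the E-box CACGTG were also searched on both strands. Neither occurred in any window of the 5 genes that were matched, and they occurred in 1.13% and 7.26% of all windows. For SREBF1 the window shown was the only one searched, so any other start of that gene was not covered. A match is a string of letters and not a measured binding site. Such boxes were not limited to the genes shown. The first HADH window held 1 NF-Y box and 2 Sp1 boxes, and the ACADS window held 2 Sp1 boxes and no NF-Y box. The table also holds a second start for HMGCS1, HADH and ACLY, which is not shown. At its second start HMGCS1 had no NF-Y box and 2 Sp1 boxes.

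The deposited values were FPKM, fragments scaled for transcript length and library size, without counts, so the depth behind each value is unknown. Summed over listed genes, the values came to between 184633 and 190415 FPKM in HCC827_Er libraries and between 222927 and 224211 FPKM in HCC827 libraries. Libraries of one line correlated with r of 0.991 to 0.994 across the listed genes, and no library stood apart. Of 10 lung epithelial markers 7 were in the table, and their summed level was 2870 to 2967 FPKM in HCC827_Er libraries and 2197 to 2291 FPKM in HCC827 libraries. NKX2-1, a transcription factor of lung epithelium, averaged 65.7 FPKM in HCC827_Er and 5.93 FPKM in HCC827. Of these 7 markers 6 were called higher, against 24.7% of all tested genes, led by SFTPB, NKX2-1 and EPCAM. SFTPB reached 1 FPKM in HCC827_Er libraries alone. The remaining one, KRT8, a keratin and the most abundant marker in HCC827, had the opposite sign, at 1025 ± 31.7 FPKM in HCC827_Er and 1744 ± 45.9 FPKM in HCC827. Its log2 difference of -0.77 was not called as deposited, but it passed the minimum (-1.11) once libraries were rescaled by median ratio. EPCAM, of epithelial adhesion, averaged 297 FPKM in HCC827_Er and 30.15 FPKM in HCC827. SFTPC, KRT7 and KRT18 were not analysed here. Of 12 markers of leukocytes, fibroblasts, endothelium and muscle, 4 were listed, with a summed level of 124.5 to 133.5 FPKM in HCC827_Er libraries and 174 to 179 FPKM in HCC827 libraries, most of it CD68. COL1A1, a collagen gene of fibroblasts, averaged 10.09 FPKM in HCC827_Er and 0.75 FPKM in HCC827. It was the only one of 3 tested that was called, against 44.4% of all tested genes. LUM, also of fibroblasts, went the other way, at 0.53 ± 0.372 FPKM in HCC827_Er and 1.81 ± 0.661 FPKM in HCC827. Its log2 difference of -0.87 was not called as deposited, but it passed the minimum with median-ratio rescaling (-1.02) and with quantile normalization (-1.07). CD68 also had a negative difference (-0.57). CDH5, of endothelium, averaged 0.610 FPKM in HCC827_Er and was listed at 0 in all 3 HCC827 libraries. The part of these markers in the results below was not tested.

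The table was nearly empty of genes with like levels in both lines, which sets the scale for every count below. A gene was called when its limma adjusted p lay under 0.05 and its difference on the log2(FPKM + 1) scale was at least 1. This is a 2-fold change of FPKM + 1, which for low genes asks for more than 2-fold in FPKM. Low genes that were not called can therefore differ by over 2-fold in FPKM. In HCC827_Er 24.7% of the 5276 tested genes were called higher and 19.7% were called lower, or 44.4% in all. An adjusted p under 0.05 alone was reached by 98.3% of tested genes, and 97.1% had no overlap between the libraries of the lines. Only 49 tested genes had an absolute log2 difference under 0.3, while 2567 lay between 0.5 and 1. How genes were chosen for the table was not given, so these shares hold for the listed genes and not for the transcriptome. If genes were listed for differing, a low adjusted p and a lack of overlap would follow from being listed. All 6 genes were tested, and each had an adjusted p under 0.05, as did nearly every gene of the table. In 4 of them every HCC827_Er library lay below every HCC827 library, as in 47.1% of tested genes, and in the other 2 above, as in 50%.

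ACLY was lower in HCC827_Er by less than 2-fold. ACLY (ENSG00000131473, GRCh38 chr17:41866908-41930542, minus strand) stood at 135, 131 and 130.0 FPKM in the HCC827_Er libraries, and at 223, 209 and 230 FPKM in the HCC827 libraries. Every HCC827_Er library lay below every HCC827 library, by between 1.56-fold and 1.77-fold. The means were 132 ± 2.40 FPKM in HCC827_Er and 221 ± 10.4 FPKM in HCC827 (SD, n = 3 each). Their log2 difference of -0.74 (SE 0.052, limma adjusted p = 1.56e-06) did not reach the 2-fold minimum. ACLY had the highest level of the 6 genes in both lines, above 96.9% of listed genes in HCC827_Er and 97.95% in HCC827.

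The mitochondrial oxidation genes differed in opposite directions, HADH higher and ACADS lower in HCC827_Er, both under the 2-fold minimum. HADH (ENSG00000138796, GRCh38 chr4:107989714-108035175, plus strand) stood at 41.0, 44.6 and 44.8 FPKM in the HCC827_Er libraries, and at 23.3, 26.4 and 25.8 FPKM in the HCC827 libraries. The lowest HCC827_Er library was 1.55-fold above the highest HCC827 library. The means of HADH were 43.5 ± 2.14 FPKM in HCC827_Er and 25.2 ± 1.65 FPKM in HCC827 (SD, n = 3 each), a log2 difference of 0.765 (SE 0.074, limma adjusted p = 1.20e-05). ACADS (ENSG00000122971, GRCh38 chr12:120725735-120740008, plus strand) stood at 10.1, 10.3 and 9.64 FPKM in the HCC827_Er libraries, and at 16.6, 16.0 and 16.2 FPKM in the HCC827 libraries. Its libraries varied little within a line, with a coefficient of variation of 3.53% in HCC827_Er and 2.03% in HCC827. The means of ACADS were 10.03 ± 0.354 FPKM in HCC827_Er and 16.3 ± 0.331 FPKM in HCC827 (SD, n = 3 each), a log2 difference of -0.65 (SE 0.078, limma adjusted p = 4.92e-05). The ratio of HADH to ACADS was 4.05, 4.32 and 4.65 in the HCC827_Er libraries, and 1.403, 1.65 and 1.59 in the HCC827 libraries.

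Both sterol enzymes fell in HCC827_Er. HMGCS1 (ENSG00000112972, GRCh38 chr5:43289395-43313512, minus strand) stood at 20.2, 24.9 and 21.3 FPKM in the HCC827_Er libraries, and at 45.4, 52.9 and 56.5 FPKM in the HCC827 libraries. Its libraries spread alike in each line, with coefficients of variation of 11.2% in HCC827_Er and 11.0% in HCC827. The means of HMGCS1 were 22.1 ± 2.48 FPKM in HCC827_Er and 51.6 ± 5.70 FPKM in HCC827 (SD, n = 3 each), a log2 difference of -1.18 (SE 0.105, limma adjusted p = 6.89e-06). SQLE (ENSG00000104549, chromosome 8) stood at 5.93, 6.64 and 7.92 FPKM in the HCC827_Er libraries, and at 17.8, 18.4 and 19.1 FPKM in the HCC827 libraries. Every HCC827_Er library lay below every HCC827 library by at least 2.25-fold, the widest gap of the 6 genes. The means of SQLE were 6.83 ± 1.01 FPKM in HCC827_Er and 18.4 ± 0.660 FPKM in HCC827 (SD, n = 3 each), a log2 difference of -1.32 (SE 0.109, limma adjusted p = 4.44e-06). SQLE was the lowest of the 6 genes in HCC827_Er, while ACADS was the lowest in HCC827.

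SREBF1 rose in HCC827_Er by just over the 2-fold minimum. SREBF1 (ENSG00000072310, GRCh38 chr17:17810399-17837002, minus strand) stood at 93.0, 74.9 and 78.9 FPKM in the HCC827_Er libraries, and at 44.7, 38.5 and 37.8 FPKM in the HCC827 libraries. Replicate 1 was the highest library of each line, and the lines did not overlap. The means of SREBF1 were 82.3 ± 9.50 FPKM in HCC827_Er and 40.3 ± 3.78 FPKM in HCC827 (SD, n = 3 each), a 2.04-fold ratio and a log2 difference of 1.01 (SE 0.097, limma adjusted p = 1.15e-05). The call rested on single libraries, since the difference was 0.92 without replicate 1 of HCC827_Er, 0.98 without replicate 2 of HCC827 and 0.965 without replicate 3 of HCC827, each under the minimum. In GENCODE 29, 556 of 8030 exonic bases of SREBF1 are also exonic in RAI1, which lies on the opposite strand. Whether the reads were counted by strand is not given in the sources used here, so reads in the shared bases cannot be told apart. RAI1, a transcriptional regulator, stood at 44.9, 47.0 and 44.2 FPKM in the HCC827_Er libraries and at 13.2, 11.4 and 10.7 FPKM in the HCC827 libraries, and was called higher (log2 difference 1.87, SE 0.088, limma adjusted p = 1.41e-07). HMGCS1 shares 703 of its 4702 exonic bases, and ACLY 156 of 5217, with antisense genes that were not analysed here.

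**Figure D1:**
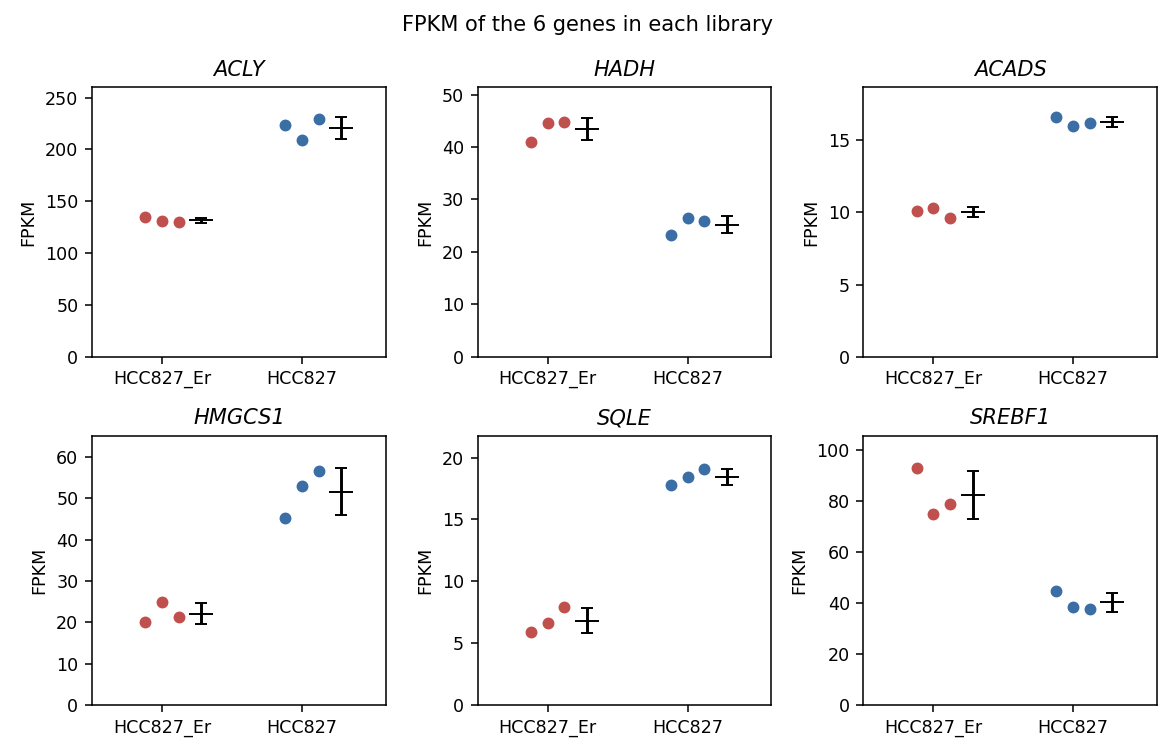
FPKM (vertical axes, each starting at 0) of the 6 genes in each library, with HCC827_Er at the left and HCC827 at the right of each panel; points are libraries and the bars give the mean and SD of 3. HADH and SREBF1 were higher, and ACLY, ACADS, HMGCS1 and SQLE lower, in every HCC827_Er library than in any HCC827 library.

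SREBF1 was called higher, and HMGCS1 and SQLE were called lower. Thus 1 of the 6 genes was called higher, against 24.7% of all tested genes, and 2 were called lower, against 19.7%. The median log2 difference of the 6 genes was -0.69, and that of all tested genes was 0.43. The sign of the second median depended on the minimum level, since it was -0.385 over the 3871 genes with at least 1 FPKM in all 6 libraries, where the median of the 6 genes was again -0.69. The genes were not among the strongest of the table. Of all tested genes, 28.15% had a larger absolute log2 difference than SQLE, 34.3% a larger one than HMGCS1 and 43.8% a larger one than SREBF1. For HADH, ACLY and ACADS these shares were 65.05%, 67.7% and 78.0%.

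**Figure D2:**
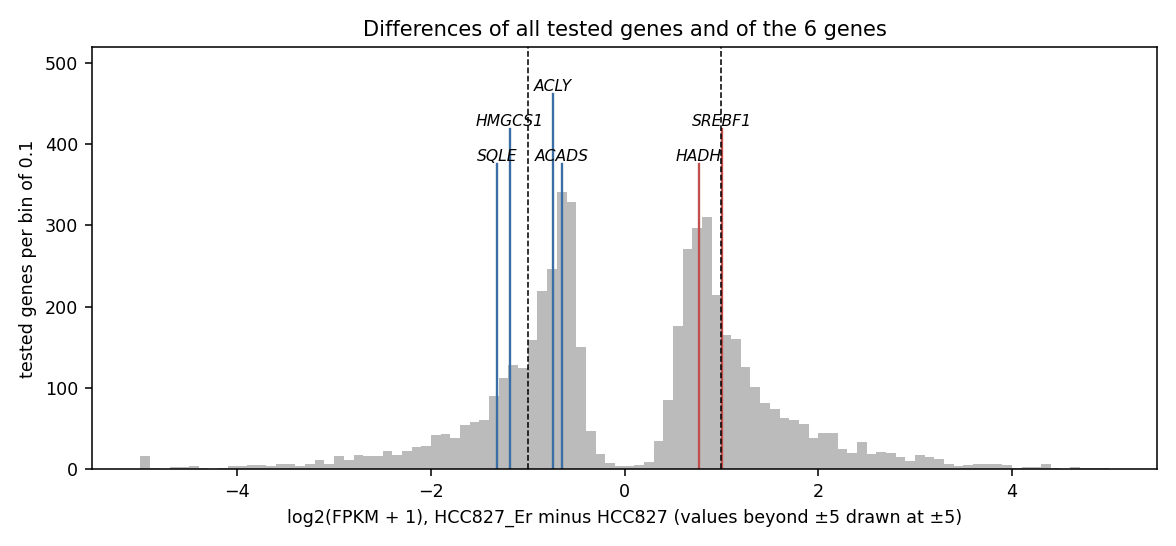
Number of tested genes (vertical axis, bins of 0.1) by log2(FPKM + 1) difference, HCC827_Er minus HCC827 (horizontal axis); dashed lines mark differences of -1 and 1, and coloured lines mark the 6 genes. The 5276 genes form a group on each side of a gap around 0, and the 6 genes lie within these groups, with SQLE, HMGCS1 and SREBF1 past the dashed lines.

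The direction of each of the 6 genes was the same as deposited and with every rescaling of the libraries, but the calls were not. All rescalings were computed from the listed genes alone. Since few of these had like levels in both lines, the rescalings may reflect which genes are listed as well as library size. Median-ratio rescaling shifted the log2 differences of single genes by a median of -0.295, and scaling all libraries to one sum shifted them by a median of 0.21. The median log2 difference of all tested genes was then 0.175 and 0.605, against 0.43 as deposited. With these rescalings 896 genes were called higher and 1657 lower, and 1825 higher and 794 lower, against 1304 higher and 1041 lower as deposited. SREBF1 stood at a log2 difference of 0.67 with the median-ratio rescaling and was not called, and at 1.25 with equal sums. HMGCS1 stood at -1.52 and -0.94 with these rescalings, and was not called with equal sums. SQLE was called with both, at -1.63 and -1.09, and was not called with a pseudocount of 5 (-0.99). ACLY was called lower with the median-ratio rescaling alone (-1.08, against -0.49 with equal sums), and HADH was called higher with equal sums alone (1.01, against 0.43). ACADS, at -0.96 and -0.42, was not called with either.

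**Figure D3:**
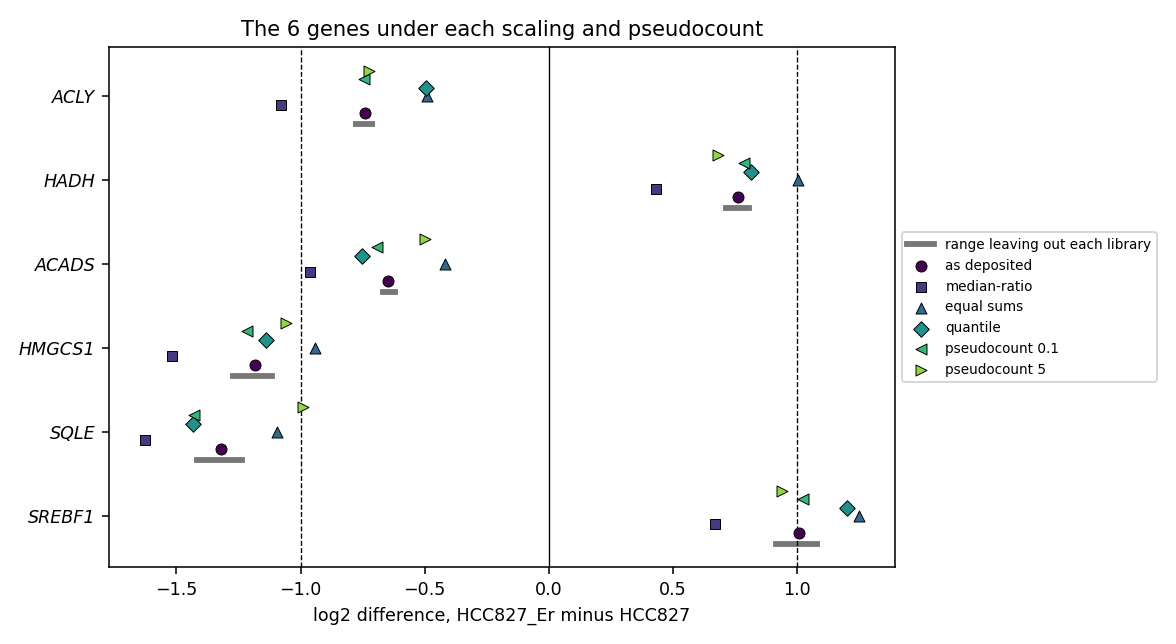
Log2 difference of the 6 genes, HCC827_Er minus HCC827 (horizontal axis), as deposited, with 3 rescalings and with 2 other pseudocounts (symbols); grey bars give the range when each of the 6 libraries is left out in turn, and dashed lines mark -1 and 1. No symbol crosses 0, while symbols of SREBF1, HMGCS1, SQLE, ACLY and HADH lie on both sides of a dashed line.

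Ratios of FPKM between a pair of these genes within a library do not depend on how that library was scaled. Of the 15 pairs, 12 did not overlap between the lines, against 78.8% of all pairs of tested genes. An exact two-sided permutation test of 3 against 3 libraries cannot give a p below 0.10, so none of the 15 could pass a threshold of 0.05. The ratio of SQLE to SREBF1 differed most, at 0.0638, 0.0886 and 0.1004 in the HCC827_Er libraries and 0.398, 0.478 and 0.505 in the HCC827 libraries. This is a difference of -2.47 on the log2 scale (exact permutation p = 0.10, adjusted p = 0.125 over the 15 pairs). The ratio of HMGCS1 to SREBF1 was 0.217, 0.333 and 0.270 in the HCC827_Er libraries, and 1.015, 1.37 and 1.495 in the HCC827 libraries. HMGCS1 was therefore the more abundant transcript per length in every HCC827 library, and SREBF1 in every HCC827_Er library. The ratio of ACLY to HADH was 3.28, 2.94 and 2.90 in the HCC827_Er libraries and 9.58, 7.925 and 8.91 in the HCC827 libraries.

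The other 3 pairs overlapped between the lines. ACLY to ACADS stood at a log2 ratio of 3.72 ± 0.046 in HCC827_Er and 3.76 ± 0.058 in HCC827 (SD, n = 3 each), a difference of -0.05 that lay within the spread of the libraries. HMGCS1 to SQLE stood at 1.70 ± 0.247 in HCC827_Er and 1.48 ± 0.113 in HCC827. HADH to SREBF1 stood at -0.92 ± 0.233 in HCC827_Er and -0.68 ± 0.226 in HCC827. With 3 libraries a line, such an overlap does not show that these pairs kept their ratio.

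**Figure D4:**
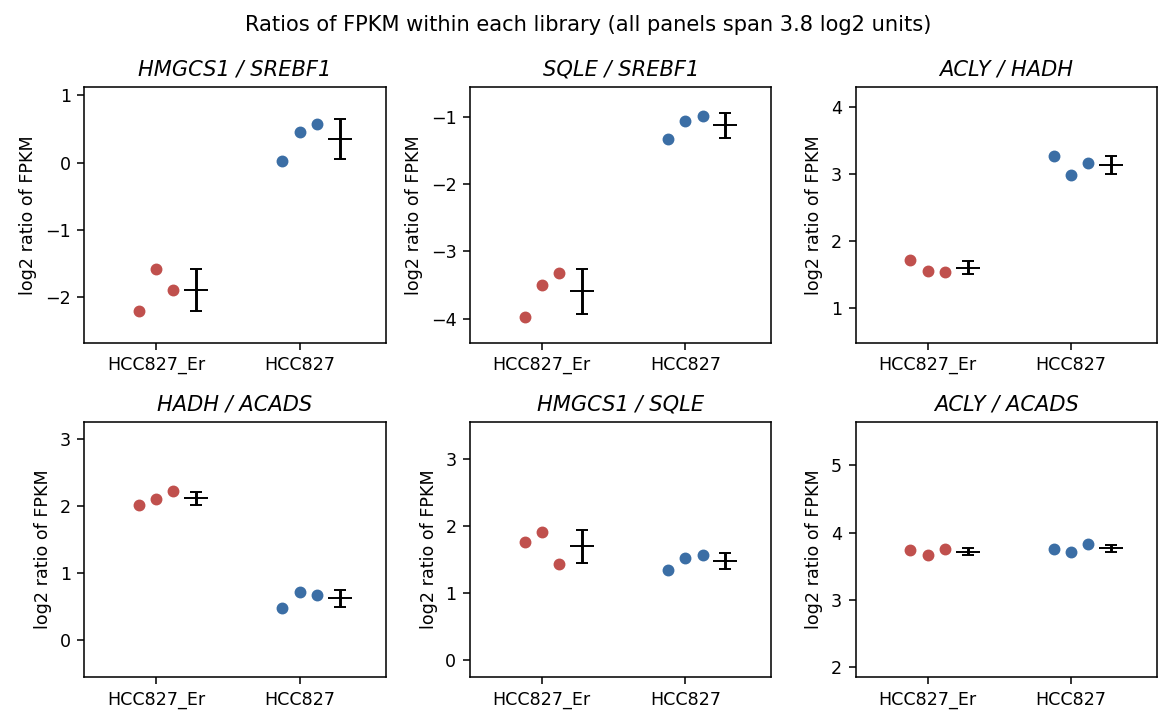
Log2 ratio of FPKM (vertical axes, each spanning the same range) of 6 pairs of genes within each library, HCC827_Er at the left and HCC827 at the right; points are libraries and the bars give the mean and SD of 3. The libraries of the lines are apart for HMGCS1 to SREBF1, SQLE to SREBF1, ACLY to HADH and HADH to ACADS, and overlap for HMGCS1 to SQLE and ACLY to ACADS.

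The order of the 6 genes by level per length differed between the lines. In HCC827_Er it ran ACLY, SREBF1, HADH, HMGCS1, ACADS and SQLE, with each mean between 1.47-fold and 2.21-fold above the next. In HCC827 it ran ACLY, HMGCS1, SREBF1, HADH, SQLE and ACADS, where ACLY was 4.28-fold above HMGCS1 and SQLE only 1.13-fold above ACADS. Neighbours in either order did not overlap in their 3 libraries.

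The other genes of these pathways were described from 9 lists with 213 names, of which 79 were in the table and 71 were tested. Names not in the table have no value here, so the counts below do not describe whole pathways. Of the 71, 11 were called higher and 14 lower, or 35.2%, against 44.4% of all tested genes. Their median log2 difference was -0.59, against 0.43 for all tested genes. With at least 1 FPKM asked in all 6 libraries, these medians were -0.62 over 64 pathway genes and -0.385 over all tested genes, so both were negative.

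Sterol synthesis had 8 tested genes, of which HMGCS1 and SQLE alone were called, both lower, with a median of -0.68. MVD, which makes isopentenyl diphosphate, stood at 37.5 ± 4.34 FPKM in HCC827_Er and 73.5 ± 4.90 FPKM in HCC827 (log2 difference -0.96), under the minimum. IDI1, its isomerase, stood at a difference of -0.78 and MSMO1, a sterol methyl oxidase, at -0.58, while EBP (0.61), NSDHL (0.69) and TM7SF2 (0.86), of the later sterol steps, had positive differences. These 6 genes were named after their values were seen. The median-ratio rescaling gave 4 lower, with MVD and IDI1, and equal sums gave 1 lower (SQLE) and 1 higher (TM7SF2). TM7SF2 was also called without replicate 1 of HCC827, and MVD without replicate 1 of HCC827_Er or replicate 3 of HCC827.

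Among genes that control SREBP or are its other targets, 2 of 9 tested were called higher and 1 lower, with a median of -0.62. RNF145, a ubiquitin ligase of the endoplasmic reticulum, rose to 76.6 ± 5.26 FPKM in HCC827_Er, against 31.2 ± 0.557 FPKM in HCC827 (log2 difference 1.27, SE 0.066, limma adjusted p = 2.57e-07). FABP5, a fatty acid binding protein whose processed copies can share reads, fell to 159 ± 6.29 FPKM in HCC827_Er, against 331 ± 12.85 FPKM in HCC827 (log2 difference -1.05). It was not called with equal sums (-0.80) or with quantile normalization (-0.797). SREBF2, the sister gene of SREBF1 that mainly drives sterol genes, stood at 24.6 ± 2.91 FPKM in HCC827_Er and 39.6 ± 0.956 FPKM in HCC827. Its log2 difference of -0.67 (SE 0.090, limma adjusted p = 9.55e-05) lay under the minimum, and it was named after its value was seen. With the median-ratio rescaling none was called higher and 4 lower, SREBF2 among them, and SREBF1 alone left the list of called genes when a library was left out.

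Fatty acid synthesis and desaturation genes had negative differences in all 9 tested, of which 2 were called lower, with a median of -0.80. FADS3, of the fatty acid desaturase family, fell to 24.2 ± 4.005 FPKM in HCC827_Er, against 93.15 ± 7.435 FPKM in HCC827 (log2 difference -1.91, SE 0.117, limma adjusted p = 6.73e-07). ELOVL7, an elongase, fell to 7.10 ± 1.003 FPKM in HCC827_Er, against 17.8 ± 0.579 FPKM in HCC827 (log2 difference -1.22). ACACA, the acetyl-CoA carboxylase that uses the product of ACLY, stood at 31.6 ± 0.943 FPKM in HCC827_Er and 47.9 ± 3.27 FPKM in HCC827, under the minimum, and was named after its value was seen. The number called lower was 7 with the median-ratio rescaling and 1 with equal sums, where ELOVL7 stood at -0.993. Of the 29 names 12 were in the table, and 3 of these, ELOVL4, SCD5 and ELOVL2, were too low to be tested. ELOVL4 averaged 0.98 FPKM in HCC827_Er and 0 in HCC827, and SCD5 0.613 and 0.223 FPKM, so both were higher in HCC827_Er. ELOVL2 was lower, at 0.50 FPKM in HCC827_Er and 0.993 FPKM in HCC827. The shared sign therefore holds for the tested genes and not for the whole pathway.

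**Figure D5:**
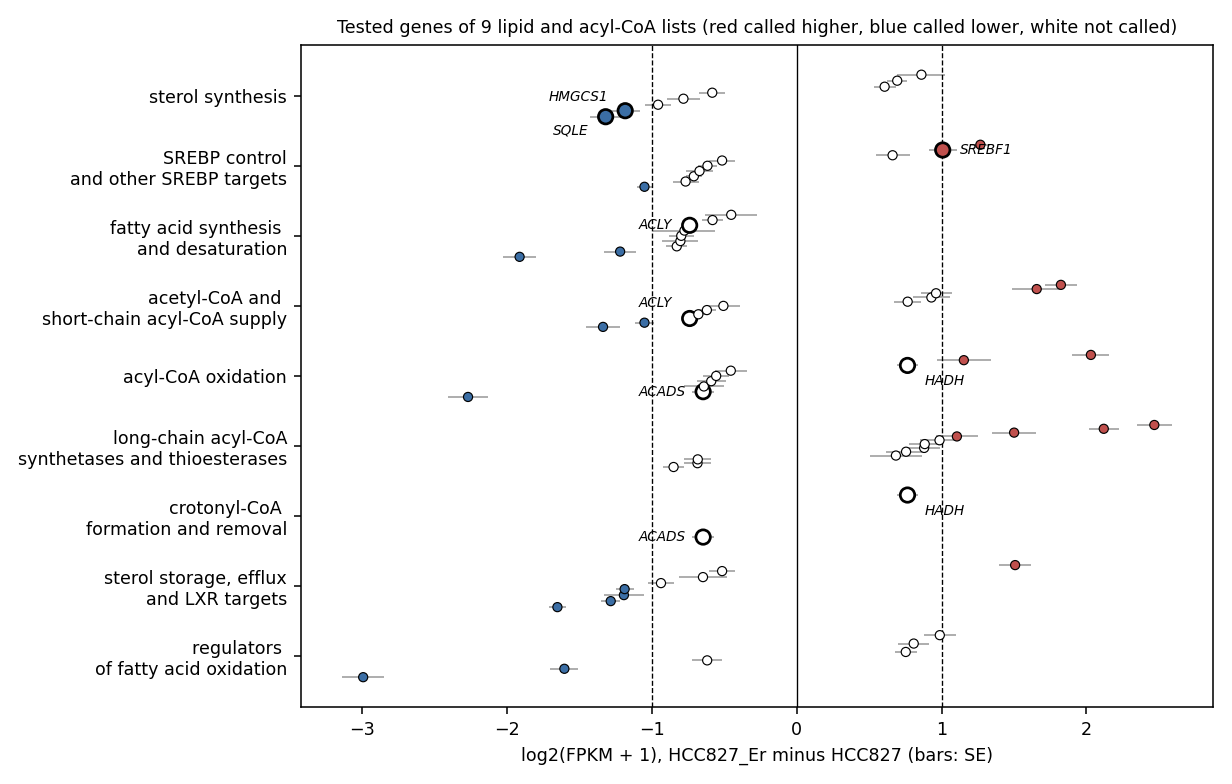
Difference in log2(FPKM + 1), HCC827_Er minus HCC827 (horizontal axis), of each tested gene in 9 lists (rows), with bars for the SE; large circles are the 6 genes, fill gives the call, and dashed lines mark -1 and 1. All 9 genes of fatty acid synthesis lie left of 0, while 9 of 12 genes of long-chain acyl-CoA handling lie right of 0.

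Genes listed under acetyl-CoA and short-chain acyl-CoA supply had a median of -0.51, and of 11 tested, 2 were called higher and 2 lower. The differences of the 11, called or not, were positive in 5 and negative in 6. The list was broader than its name, since the called genes include a regulator and synthetases of longer chains. PDK3, a kinase that restrains pyruvate dehydrogenase, rose to 9.89 ± 0.325 FPKM in HCC827_Er, against 2.08 ± 0.234 FPKM in HCC827 (log2 difference 1.82). SLC27A2, a very long-chain acyl-CoA synthetase, rose to 7.25 ± 0.285 FPKM in HCC827_Er, against 1.67 ± 0.644 FPKM in HCC827 (1.66). ACAT1, the mitochondrial acetoacetyl-CoA thiolase, fell to 59.3 ± 4.20 FPKM in HCC827_Er, against 124 ± 2.48 FPKM in HCC827 (log2 difference -1.05), and was not called without replicate 1 of HCC827_Er, with equal sums or with quantile normalization. ACSM5, a medium-chain acyl-CoA synthetase, was listed at 0 in all 3 HCC827_Er libraries and averaged 1.54 FPKM in HCC827, so no fold is given. It was tested through its HCC827 libraries alone. With at least 1 FPKM asked in all 6 libraries, 1 gene of the list was called lower.

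Among genes of acyl-CoA oxidation, 2 of 9 tested were called higher and 1 lower, with a median of -0.56. ACOX2, a peroxisomal oxidase of branched acyl-CoA, rose to 4.86 ± 0.448 FPKM in HCC827_Er, against 0.437 ± 0.172 FPKM in HCC827 (log2 difference 2.03). It was tested through its HCC827_Er libraries alone. With at least 1 FPKM asked in all 6 libraries, 1 gene of the list was called higher. CPT1B, a carnitine palmitoyltransferase, rose to 10.85 ± 0.995 FPKM in HCC827_Er, against 4.44 ± 1.35 FPKM in HCC827 (1.15), and was not called without replicate 1 of HCC827 or with the median-ratio rescaling. AMACR, which racemises branched acyl-CoA, fell to 13.6 ± 2.79 FPKM in HCC827_Er, against 68.35 ± 4.645 FPKM in HCC827 (log2 difference -2.27, SE 0.135, limma adjusted p = 5.81e-07). The other tested genes with negative differences included ACADM, the medium-chain relative of ACADS, at 37.0 ± 4.47 FPKM in HCC827_Er and 54.6 ± 1.79 FPKM in HCC827, under the minimum and named after its value was seen. Of 12 names for the formation and removal of crotonyl-CoA, ACADS and HADH alone were tested and neither was called. EHHADH, a peroxisomal enzyme of the same list, averaged 0.573 FPKM in HCC827_Er and 1.22 FPKM in HCC827 and was too low to be tested.

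Long-chain acyl-CoA synthetases and thioesterases included 4 genes called higher and none lower of 12 tested, with a median of 0.88. ACOT11, a thioesterase, rose to 11.2 ± 1.36 FPKM in HCC827_Er, against 1.197 ± 0.0751 FPKM in HCC827 (log2 difference 2.47, SE 0.119, limma adjusted p = 1.65e-07). The synthetase genes ACSL1 and ACSL5 rose to 27.8 ± 2.25 and 13.2 ± 0.7825 FPKM in HCC827_Er, against 5.62 ± 0.624 and 4.08 ± 0.992 FPKM in HCC827. The other called gene, SLC27A1, a fatty acid transporter named after its value was seen, rose to 7.65 ± 1.34 FPKM in HCC827_Er, against 3.00 ± 0.4015 FPKM in HCC827. SLC27A1 was not called with the median-ratio rescaling (0.82), with quantile normalization (0.93) or with a pseudocount of 5 (0.66), each of which left 3 genes of the list called higher. The number called higher was 7 with equal sums, and the median-ratio rescaling called 3 lower.

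Genes of sterol storage and efflux, with targets of the sterol sensor LXR, included 4 called lower and 1 called higher of 8 tested, with a median of -1.06. NPC1, which carries cholesterol out of lysosomes, fell to 37.5 ± 1.43 FPKM in HCC827_Er, against 120.0 ± 4.19 FPKM in HCC827 (log2 difference -1.65, SE 0.057, limma adjusted p = 2.21e-08). SCARB1, a receptor for high-density lipoprotein, fell to 64.2 ± 3.64 FPKM in HCC827_Er, against 158 ± 9.42 FPKM in HCC827, and the apolipoprotein gene APOE to 2.76 ± 0.557 FPKM, against 7.56 ± 0.740 FPKM in HCC827. MYLIP, a ligase that marks the LDL receptor for degradation, rose to 4.76 ± 0.162 FPKM in HCC827_Er, against 1.03 ± 0.151 FPKM in HCC827 (log2 difference 1.51). LPCAT3, an acyltransferase of phospholipids and the other gene called lower, was named after its value was seen and stood at -1.19. APOE and LPCAT3 were not called with equal sums, where 2 genes of the list were called lower.

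Of 6 tested regulators of fatty acid oxidation, 2 were called lower and none higher, with a median of 0.07. PPARGC1A, a coactivator of mitochondrial genes, averaged 0.00667 FPKM in HCC827_Er, with 2 of 3 libraries listed at 0, and 7.10 ± 1.46 FPKM in HCC827, so no fold is given. It was tested through its HCC827 libraries alone, so its call leans on that filter. With at least 1 FPKM asked in all 6 libraries, 1 regulator was called lower. PPARG, a nuclear receptor of lipid storage, fell to 11.5 ± 0.490 FPKM in HCC827_Er, against 37.3 ± 4.42 FPKM in HCC827 (log2 difference -1.60). PPARD, at a difference of 0.99, was called higher without replicate 2 or 3 of HCC827_Er or replicate 3 of HCC827.

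The tested genes within 500 kb of each of the 6 genes in GENCODE 29 did not share 1 pattern. All 4 tested neighbours of SREBF1 had positive differences, from 0.63 to 1.87, of which RAI1 was called higher, and ATPAF2, the nearest on the other side, stood at 34.1 ± 2.19 FPKM in HCC827_Er and 20.15 ± 2.83 FPKM in HCC827. All 4 tested neighbours of SQLE had negative differences, from -1.15 to -0.78. Of these MTSS1 was called lower, at 0.297 ± 0.0473 FPKM in HCC827_Er and 1.89 ± 0.380 FPKM in HCC827, and TRIB1, the nearest on the other side, stood at a log2 difference of -0.78. Around ACLY the 11 tested genes ranged from -1.88 to 4.80, with 3 called higher and 1 lower. The nearest on each side were KLHL11 at 1.5 kb (-0.50) and GHDC at 258.3 kb (-0.61). Genes with positive as well as negative differences lay closer to ACLY than GHDC. Around ACADS 2 of 7 were called higher and 3 lower, with the nearest, CABP1, listed at 0 in all HCC827_Er libraries and at a mean of 11.3 FPKM in HCC827. The tested neighbours of HMGCS1 were CCL28 (0.86) and ANXA2R-OT1 (-0.23), neither called, and HADH had none. Whether copy number differs between the lines was not tested.

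The genes most like each of the 6 were found by the root-mean-square distance between profiles of log2(FPKM + 1) over the 6 libraries, each centred on its own mean. ACADS was closest to GET3 and RBM19, at distances of 0.017 and 0.020, and ACLY to GPRC5A and ACTRT3, both at 0.021. ACTRT3 averaged only 0.397 FPKM in HCC827_Er and 1.37 FPKM in HCC827. At such levels the pseudocount of 1 narrows the difference, so ACTRT3 and ACLY are not alike in their fold of FPKM. HADH was closest to CDC25C (0.026) and ANKRD36 (0.027), and HMGCS1 to MLKL (0.027) and RECQL (0.052). MLKL stood at 8.62, 10.6 and 9.14 FPKM in the HCC827_Er libraries and at 20.0, 22.5 and 25.7 FPKM in the HCC827 libraries. It shared with HMGCS1 its highest HCC827_Er library and its lowest HCC827 library, which a search by distance over these libraries favours. SQLE was close to LACTB2 (0.044), and SREBF1 was closest to MTA1 and HIVEP3 (both 0.049). None of the 6 genes was the closest to another of them, since they were left out of this search by rule.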

How the data were processed

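Total RNA of 3 HCC827_Er and 3 HCC827 libraries was prepared for sequencing with the Illumina TruSeq kit, per the protocols in the labels. The authors deposited FPKM values per Ensembl gene, rounded to 2 decimals. fastp, HISAT2 and StringTie are named in the submitters' processing notes, beside the builds hg19 and GRCh38.p14, whose roles are not stated. How genes were chosen for the table, and the strand setting, annotation and tool versions, were not given in the sources used here. Symbols were matched by identifier for 6636 of 6641 genes, and positions and exons came from GENCODE 29 (GRCh38), which listed 6353.

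Values were transformed to log2(FPKM + 1), which understates changes of low genes. Genes with at least 1 FPKM in 3 or more libraries were tested, 5276 in all, with the line as the only term in limma 3.58.1 (R 4.3.3; moderated by eBayes with a trend). P-values were adjusted by Benjamini-Hochberg over all tested genes. The steps were tested on simulated data. Genes were named by rule: the 6 genes, up to 3 called genes in each direction per list (or the 2 with the largest difference where none was called), the 2 most similar profiles per gene and the nearest tested gene on each side. A few of these are not reported here. Genes named beyond the rule are said to be so, with some exceptions. NKX2-1, KRT8, CD68, LUM, CDH5, EHHADH, PPARD, ELOVL2, ELOVL4 and SCD5 were also named after their values were seen. The genes, lists and tests were chosen with earlier results of these data known. Alternatives were other pseudocounts, minima, scalings and limma settings, a replicate block and each library left out, with the minimum FPKM kept on all 6 libraries.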

Additional observations from a re-analysis of the deposited data

How the results depend on the processing

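Over 17 alternatives, none of the 102 values of the 6 genes changed direction and 90 kept their call. The other 12 were SREBF1, not called with a pseudocount of 5 (0.94), with median-ratio rescaling (0.67) or without 3 single libraries; HMGCS1 with equal sums (-0.94); SQLE with a pseudocount of 5 (-0.99); ACLY, called with median-ratio rescaling (-1.08); HADH, called with equal sums (1.01); and ACLY (-0.74), HADH (0.765) and ACADS (-0.65), called once no minimum difference was asked. The cause was not tested. Leaving out each library gave 0.918 to 1.082 for SREBF1, -1.27 to -1.12 for HMGCS1, -1.42 to -1.24 for SQLE, -0.78 to -0.71 for ACLY, 0.71 to 0.81 for HADH and -0.67 to -0.62 for ACADS. None of 105 values of the ratios moved by more than the SD of its libraries.

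Of all tested genes, 579 were called higher and 506 lower with a pseudocount of 5, 753 and 650 with at least 1 FPKM in all 6 libraries (fewer genes tested), 896 and 1657 with median-ratio rescaling, and 2672 and 2515 with no minimum difference. Of 306 list counts, 53 moved by over 1.5 times. With a pseudocount of 5, sterol synthesis had 1 lower, SREBP genes 1 higher, fatty acid synthesis 1 lower, acyl-CoA supply 1 higher and 1 lower, acyl-CoA oxidation 0 higher and sterol storage 0 higher; ELOVL7, ACSM5, SLC27A2, CPT1B, ACOX2, SLC27A1, MYLIP and APOE lost their calls. With a pseudocount of 0.1, acyl-CoA supply had 4 higher and the regulators 1 higher. With at least 1 FPKM in all 6 libraries, acyl-CoA supply had 1 lower, acyl-CoA oxidation 1 higher, sterol storage 0 higher and the regulators 1 lower. With median-ratio rescaling, sterol synthesis had 4 lower, SREBP genes 0 higher and 4 lower, fatty acid synthesis 7 lower, acyl-CoA oxidation 1 higher and long-chain acyl-CoA genes 3 lower. With equal sums, sterol synthesis had 1 higher and 1 lower, SREBP genes 0 lower, fatty acid synthesis 1 lower, acyl-CoA supply 5 higher and 1 lower, long-chain acyl-CoA genes 7 higher, crotonyl-CoA genes 1 higher, sterol storage 2 lower and the regulators 2 higher. With quantile normalization, SREBP genes had 0 lower and acyl-CoA supply 1 lower. With no minimum difference, higher and lower counts were 3 and 5 for sterol synthesis, 6 lower for SREBP genes, 9 lower for fatty acid synthesis, 5 and 6 for acyl-CoA supply, 6 lower for acyl-CoA oxidation, 9 and 3 for long-chain acyl-CoA genes, 1 and 1 for crotonyl-CoA genes, 7 lower for sterol storage and 3 higher for the regulators. Leaving out each library gave 0 to 1 higher and 2 to 3 lower for sterol synthesis, 1 to 2 higher for SREBP genes, 2 to 3 higher and 1 to 2 lower for acyl-CoA supply, 1 to 2 higher for acyl-CoA oxidation and 0 to 1 higher for the regulators.

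The deviations of same-numbered libraries correlated weakly, with r of 0.106, -0.022 and 0.049. The labels do not say whether these libraries were paired, and such correlations do not settle it. With the replicate block, 1304 genes were called higher and 1041 lower, the same counts as without it, and the 6 genes kept their calls (SREBF1 1.01, SE 0.053). The table holds no counts, so counting error could not be set beside the spread of the libraries.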
